A study of Mus musculus with 9 samples.

Results

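The genes described here are 10 genes of transforming growth factor beta (TGF-beta) signalling and of the transcriptional co-activator YAP in mouse liver. They are the ligands Tgfb1, Tgfb2 and Tgfb3, the extracellular activator Thbs1, the receptors Tgfbr1 and Tgfbr2, the inhibitor Smad7, and the target genes Ccn2, Ccn1 and Ankrd1. They were picked by symbol out of the 17846 genes listed in the processed files, and the set was chosen by the value of Ccn2 in exercised against sedentary NASH mice, so that contrast is given below as a description. RNA sequencing was performed on the livers of 9 male wild-type C57/BL mice, 3 in each of 3 groups. Control mice ate normal chow and stayed sedentary. NASH (non-alcoholic steatohepatitis) mice ate the Ath diet, an atherogenic chow with added cholesterol and cholate, for 20 weeks and stayed sedentary. NASH+Exercise mice began 8 weeks of treadmill training after 12 weeks of that diet. Training started at 20 weeks of age, and all mice were fasted overnight before liver was taken. No group was trained on normal chow, so an effect of training without the diet cannot be told apart from its effect within the diet.

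TGF-beta ligands are secreted in a latent complex, are released from it by integrins, proteases or thrombospondin, and then join a type II and a type I receptor that phosphorylate SMAD2 and SMAD3. Activated SMAD proteins enter the nucleus with SMAD4 and switch on matrix genes, Ccn2 and the pathway's own inhibitor Smad7. YAP and its paralogue TAZ (gene Wwtr1) are held in the cytoplasm by the Hippo kinases and act in the nucleus through the TEAD DNA-binding proteins, with Ccn1, Ccn2 and Ankrd1 as standard readouts. In liver both pathways are best known from the scar-forming hepatic stellate cell.

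RefSeq promoter windows (GRCm38.p6, 250 bases before to 50 after the start, in the direction of transcription) were on hand for 6 of the 10 genes. The stretches before the start of Ccn1 and Ankrd1 are printed because both genes are standard YAP readouts whose levels are given below. The capitals mark the TEAD core GGAATG or its complement CATTCC. The first is chr3:145649986-145650235 and the second chr19:36119845-36120094, both on the minus strand and printed 5′ to 3′.
Ccn1: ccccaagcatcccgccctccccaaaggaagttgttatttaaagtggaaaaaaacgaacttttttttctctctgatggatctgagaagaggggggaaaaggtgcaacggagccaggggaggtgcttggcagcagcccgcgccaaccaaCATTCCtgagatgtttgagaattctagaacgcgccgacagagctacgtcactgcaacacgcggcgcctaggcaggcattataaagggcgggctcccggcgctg
Ankrd1: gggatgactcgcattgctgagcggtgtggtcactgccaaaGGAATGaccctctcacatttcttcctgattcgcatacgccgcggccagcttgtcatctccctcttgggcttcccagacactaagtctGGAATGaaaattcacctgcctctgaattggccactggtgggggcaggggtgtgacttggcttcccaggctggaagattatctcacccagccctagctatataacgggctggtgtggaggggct

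Ccn1 held 1 match, whose first base lies at -103 from the start, and Ankrd1 held 2, at -210 and -123. Searched on both strands, this core stood in 14.7% of all 32851 windows of the same length, and 1.36% held it at least 2 times. The windows of Tgfb1, Tgfb2, Tgfbr1 (2 windows) and Tgfbr2 held none, which says only that these letters are not in those windows. The AP-1 motif TGACTCA (5.2% of all windows) and the SMAD palindrome GTCTAGAC (0.213%) were in none of the 7 windows searched. These matches are a description of sequence, not of binding.

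Libraries held 20086007 to 22495434 estimated counts and 15442 to 16379 genes with a count. All 6 hepatocyte markers were detected in quantity (Alb, albumin, averaged 62553 to 94477 CPM across groups, where CPM is the count of a gene scaled to a common library size by edgeR's TMM method), which fits the liver label. Macrophage markers were called higher in NASH in 8 of 8 genes, with a summed level of 88.4 to 160 CPM in Control, 995 to 1136 in NASH, then 760 to 895 in exercised mice. Stellate cell markers were called higher in 4 of 10 genes, and their sum ran from 171 to 321 CPM in Control, 423 to 602 in NASH, then 289 to 385 in exercised mice. Sinusoidal endothelial markers were called higher in 1 of 8 genes (mean sums of 139.6 CPM in Control, 189 in NASH, then 165 in exercised mice), cholangiocyte markers in 3 of 7, and hepatocyte markers lower in 1 of 6. Of all genes tested, 15.3% were called higher in NASH and 3.02% lower. All 6 hepatocyte markers had negative log2 fold changes in NASH. Their sum ran from 121847 to 146481 CPM in Control, 73002 to 103724 in NASH, then 82688 to 108712 in exercised mice, with NASH replicate 19 lowest. NASH replicate 19 stood apart in cholangiocyte (bile duct cell) markers, with a sum of 402 CPM against 124 and 109 in the other NASH mice, 77.3 to 105 in NASH+Exercise and 36.8 to 46.3 in Control. That mouse was also the highest of its group in 8 of the 10 genes described here. The cholangiocyte sum was mostly Spp1 in NASH, a gene named after its value was seen. Spp1 averaged 171 CPM there, of a mean sum of 212 CPM. Whether these shifts in cell markers take part in any change given below was not tested. In whole liver, fewer cells of a type and less RNA per cell cannot be told apart.

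The first comparison asked how the diet changed these genes. In NASH livers 6 of the 10, and 5 of the 9 other than Ccn2, were called higher than in Control and none lower, a gene being called where edgeR's quasi-likelihood test gave a Benjamini-Hochberg adjusted p under 0.05 with a change of over 1 on the log2 scale in either direction. The background is 15.3% of the 13620 genes tested called higher and 3.02% called lower. In 8 of the 10 genes all 3 NASH mice lay above all 3 Control mice, which held for 27.4% of genes tested, and the reverse order, found in 22.2% of genes, held for none of the 10. Their median log2 fold change was 1.16, against 0.01 for all genes. Ccn2, whose NASH values were part of what chose the set, is among the 8 and enters this median, so both are descriptions. Levels between mice are on the TMM scale. Scaled by total counts alone, the median of all genes would shift to 0.36 in this comparison, to -0.23 between NASH+Exercise and NASH, and to 0.15 between NASH+Exercise and Control.

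**Figure D1:**
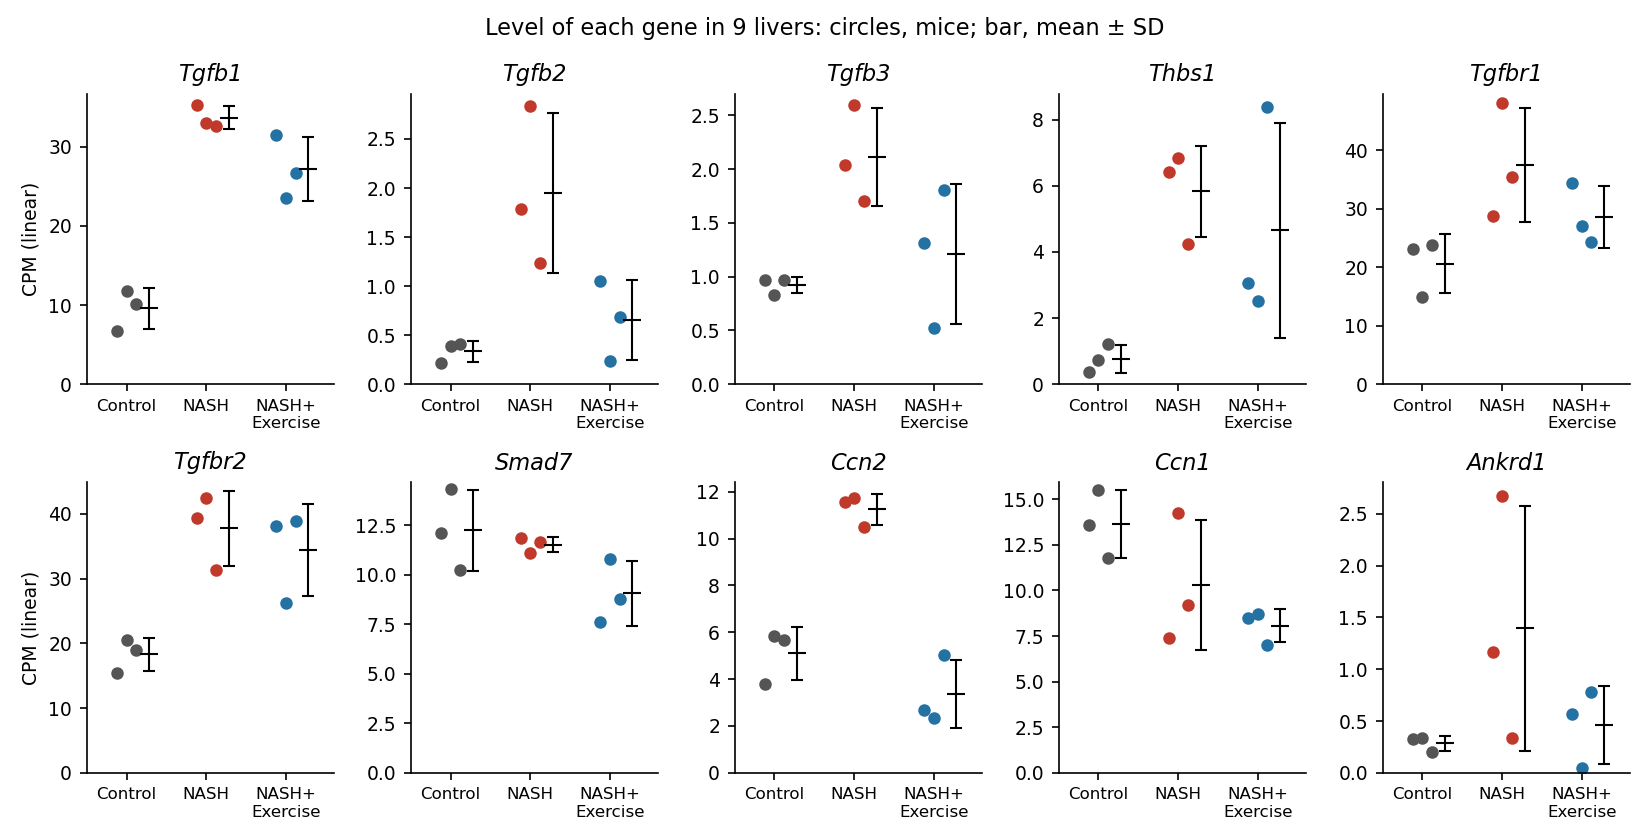
Level of the 10 genes in CPM (linear axes from 0) in 3 mice per group, with circles for mice and bars for the group mean ± SD. Tgfb1 lies between 32.6 and 35.3 CPM in NASH and between 23.5 and 31.5 with exercise, both above Control, whereas Ccn2 in NASH+Exercise (2.36 to 5.02) lies in or below the range of Control (3.81 to 5.84).

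Tgfb1 (chr7:25687002-25705077), the principal fibrogenic ligand, was at 6.76, 11.8 and 10.2 CPM in Control replicates 3, 4 and 29. It was at 35.3, 33.0 and 32.6 CPM in NASH replicates 5, 19 and 20, and at 31.5, 23.5 and 26.7 CPM in NASH+Exercise replicates 8, 18 and 22. The groups did not overlap in either diet group against Control. The log2 fold change in NASH was 1.81 ± 0.19 (SE, n = 3 mice per group, edgeR adjusted p = 5.81e-05), and Tgfb1 was called in each of the 6 fits that left out 1 mouse.

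Tgfb2 (chr1:186622787-186709697), a ligand that needs a co-receptor for strong type II receptor binding, was scarce, with counts of 4, 7 and 8 in Control, 43, 73 and 29 in NASH, then 24, 5 and 14 in exercised mice. In CPM this is 0.215 to 0.408 in Control, 1.23 to 2.83 in NASH, then 0.236 to 1.05 in exercised mice. Every NASH mouse lay above every other mouse. Tgfb2 rose in NASH by 2.51 ± 0.53 on the log2 scale (SE, edgeR adjusted p = 0.00432).

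Tgfb3 (chr12:86056743-86079041), the third ligand, was at 0.966, 0.834 and 0.969 CPM in Control, at 2.04, 2.6 and 1.70 in NASH, then at 1.31, 0.519 and 1.80 in exercised mice. NASH and Control did not overlap, and NASH+Exercise spanned both. The rise in NASH was 1.19 ± 0.39 on the log2 scale (SE, edgeR adjusted p = 0.0374). This call is weak: it was lost in 5 of the 6 fits without 1 mouse (any Control mouse, NASH replicate 5 or NASH replicate 19), where the adjusted p ran from 0.0721 to 0.129.

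Compared on the deposited TPM scale, which divides counts by transcript length and so allows genes to be set against each other, Tgfb1 made up 92.5% ± 1.98 (SD, n = 3) of the 3 ligands' summed level in Control, 93.8% ± 1.76 in NASH, then 96.3% ± 1.71 in exercised mice. Control and NASH overlapped in this share (exact permutation test, two-sided p = 0.5). The summed ligand level was 6.97 ± 1.70 TPM in Control, 32.9 ± 2.92 in NASH, then 21.3 ± 5.37 in exercised mice. Its mean log2 change was 2.26 in NASH against Control and -0.65 in NASH+Exercise against NASH. The edgeR changes of Tgfb1, on the TMM scale, were smaller (1.81 and -0.30), so the size of these shifts depends on the scale. With 3 mice per group the smallest two-sided p an exact permutation test can give is 0.1, which was reached between NASH and Control for this sum.

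Thbs1 (chr2:118111876-118127133) encodes thrombospondin 1, which can release active TGF-beta from its latent complex. Its level was 0.376, 0.723 and 1.22 CPM in Control (counts 7, 13 and 24), 6.40, 6.83 and 4.25 CPM in NASH (counts 154, 176 and 100), and 3.06, 2.50 and 8.38 CPM in NASH+Exercise (counts 70, 53 and 172). Every mouse on the diet lay above every Control mouse, and the highest of all 9 was an exercised mouse, replicate 22. The log2 fold change in NASH was 2.89 ± 0.54 (SE, edgeR adjusted p = 0.00243), the largest among the 10 genes.

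Tgfbr2 (chr9:116087695-116175363), the type II receptor, was at 15.5, 20.5 and 19 CPM in Control, 39.4, 42.5 and 31.4 in NASH, then 38.2, 26.2 and 38.9 in exercised mice. Both diet groups lay above Control. Its rise in NASH was 1.04 ± 0.18 on the log2 scale (SE, edgeR adjusted p = 0.00144), close to the fold threshold, and was 0.93 without Control replicate 3 and 0.92 without NASH replicate 19, which ended the call.

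Tgfbr1 (chr4:47353222-47414926), the type I receptor kinase, was at 23.2, 14.9 and 23.8 CPM in Control, 28.8, 48.1 and 35.5 in NASH, then 34.5, 27.1 and 24.3 in exercised mice. NASH lay above Control in all 3 mice, with replicate 19 highest. At 0.86 ± 0.23 on the log2 scale (SE, edgeR adjusted p = 0.0155) the difference passed the p threshold and missed the fold threshold. Without NASH replicate 5 it was 1.02 and with total counts alone 1.21, and was called in both. Without NASH replicate 19 it was 0.61 (edgeR adjusted p = 0.063) and passed neither threshold. The ratio of the receptors, Tgfbr2 TPM over Tgfbr1 TPM, was 1.13 ± 0.45 in Control and 1.25 ± 0.336 in NASH (SD, n = 3), which overlapped (exact permutation test, two-sided p = 0.6).

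Smad7, the inhibitory SMAD that recruits ubiquitin ligases to the type I receptor, was at 12.1, 14.3 and 10.3 CPM in Control, 11.8, 11.1 and 11.6 in NASH, then 7.60, 10.8 and 8.77 in exercised mice. The 3 NASH mice lay within the range of Control. The log2 difference between NASH and Control was -0.09 ± 0.17 (SE, edgeR adjusted p = 0.732). Its direction depends on the scale: with total counts alone it was 0.28, and in TPM the NASH mice (5.75 to 6.60) lay above the Control mice (4.39 to 4.70).

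Ccn2 (chr10:24595442-24598683), also called connective tissue growth factor, is a secreted matricellular protein induced by both SMAD and YAP. It was at 3.81, 5.84 and 5.66 CPM in Control, 11.6, 11.7 and 10.5 in NASH, then 2.66, 2.36 and 5.02 in exercised mice, from counts of 50 to 302 per mouse. The 3 NASH mice were close to each other and above all other mice. Its NASH values were part of what chose the set, so the difference from Control, 1.14 ± 0.27 on the log2 scale (SE), is a description and no p is given. Without Control replicate 3, the lowest of its group, it was 0.96 and missed the fold threshold.

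Ccn1 (chr3:145646971-145649985), the close paralogue of Ccn2 and an equally common YAP readout, was not called. It was at 13.6, 15.5 and 11.8 CPM in Control, 7.40, 14.3 and 9.22 in NASH, then 8.51, 8.69 and 7.02 in exercised mice. In NASH, replicates 5 and 20 lay below every Control mouse and replicate 19 within Control. The log2 difference was -0.40 ± 0.23 (SE, edgeR adjusted p = 0.195), and without NASH replicate 19 it was -0.75 with an adjusted p of 0.0184, below the fold threshold in both. On the TPM scale the group means were 9.85 in Control and 10.3 in NASH, so the direction of the mean depends on the scale. The ratio of Ccn2 TPM to Ccn1 TPM was 0.236, 0.317 and 0.405 in Control, 1.31, 0.690 and 0.958 in NASH, then 0.263, 0.228 and 0.601 in exercised mice. The NASH mice lay above all others in this ratio, which contains the Ccn2 values that were part of what chose the set, so no p is given.

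Ankrd1 (chr19:36111965-36119844), a YAP target and a cardiac and muscle ankyrin-repeat protein that is scarce in normal liver, had counts of 6, 6 and 4 in Control, 28, 69 and 8 in NASH, then 13, 1 and 16 in exercised mice. In CPM these are 0.204 to 0.334, 0.340 to 2.68 and 0.0472 to 0.780. NASH replicate 20, at 0.340 CPM, was just above the highest Control mouse, and NASH replicate 19 alone held most of the group's counts. The log2 fold change in NASH of 2.28 ± 0.84 was not called (SE, edgeR adjusted p = 0.0601) and was 1.36 without NASH replicate 19. It passed both thresholds without NASH replicate 20 (2.73), with total counts alone (2.67) and under DESeq2 (2.25, adjusted p = 0.015).

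**Figure D2:**
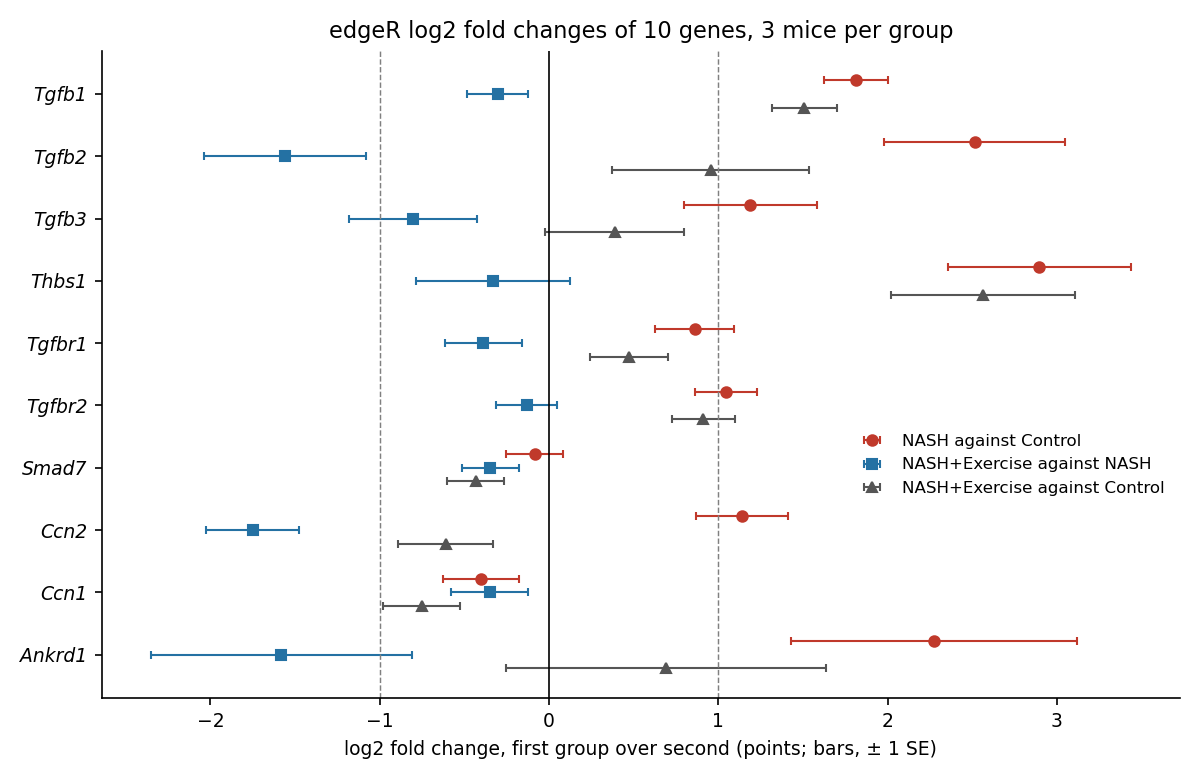
Fold changes of the 10 genes on the log2 scale from the edgeR fit, with bars of ± 1 SE, a solid line at 0 and dashed lines at the fold threshold of 1 in each direction. Red circles compare NASH with Control, blue squares NASH+Exercise with NASH (the contrast from which the genes were chosen) and grey triangles NASH+Exercise with Control. Tgfb1 and Thbs1 stay right of 1 in both comparisons with Control, and Ccn1 lies left of 0 in all 3.

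On the TPM scale the order of the 10 genes differed between Control and the diet groups. In Control, Ccn1 was highest at 9.85 ± 0.139 TPM (SD, n = 3) and did not overlap with Tgfb1 at 6.47 ± 1.65. Tgfb1, Tgfbr2 (5.66 ± 0.92), Tgfbr1 (5.50 ± 1.93) and Smad7 (4.57 ± 0.163) overlapped with their neighbours. Ccn2 followed at 3.14 ± 0.801 TPM, and Tgfb3, Ankrd1, Thbs1 and Tgfb2 were all under 0.5 TPM on average. In NASH, Tgfb1 led at 30.8 ± 2.24 TPM, above Tgfbr2 (15.9 ± 3.33), and Ccn2 (9.35 ± 1.11) overlapped with Ccn1 (10.3 ± 4.28). In NASH+Exercise, Tgfb1 was again first at 20.5 ± 5.09 TPM, and Ccn2, at 2.2 ± 0.753, stood below Smad7 (3.90 ± 0.713) without overlap.

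The second comparison set exercised against sedentary mice on the same diet. Because Ccn2 was selected on its value here, and with it the set, the values are descriptive and no p is read from them. Ccn2 was the 1 gene of the 10 called, with a log2 fold change of -1.75 ± 0.28 (SE), beside a background of 0.0367% of genes called lower, from which nothing is read. All 10 log2 fold changes were negative, with a median of -0.37 against -0.03 for all genes. The largest after Ccn2 were those of Ankrd1 (-1.58), Tgfb2 (-1.56) and Tgfb3 (-0.80), and the smallest that of Tgfbr2 (-0.13). All 3 exercised mice lay below all 3 NASH mice for Ccn2, Tgfb1 (-0.30), Tgfb2 and Smad7 (-0.35), an order found in 14.9% of genes tested, and the other 6 overlapped in CPM, Tgfb3 no longer on the TPM scale. The call of Ccn2 stood in 1 of the 6 fits that left out 1 mouse. Besides Ccn2, only Ankrd1 and Tgfb2 had changes beyond the fold threshold, with SEs of 0.77 and 0.48 and far fewer counts than Ccn2. NASH+Exercise replicate 18 was the lowest of its group in 7 of the 10 genes and replicate 22 the highest in 5, so these mice differed among themselves.

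The third comparison asked where the exercised mice stood against Control, and shares its mice with both comparisons above, the exercised ones with the choice of Ccn2. Of the 10 genes, 2 were called higher (background 10.4%), namely Tgfb1 and Thbs1, and none lower (background 3.07%). Tgfb1 exceeded Control by 1.51 ± 0.19 on the log2 scale (SE, edgeR adjusted p = 0.000285) and Thbs1 by 2.56 ± 0.54 (adjusted p = 0.00672). Both were called in all 6 fits without 1 mouse. Tgfbr2 exceeded Control by 0.91 ± 0.19 (adjusted p = 0.00448), under the fold threshold. All exercised mice lay above all Control mice for 4 genes (Tgfb1, Thbs1, Tgfbr1 and Tgfbr2), against 21.5% of genes tested, although Tgfbr1 overlapped on the TPM scale.

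Ccn2 in NASH+Exercise differed from Control by -0.61 ± 0.28 on the log2 scale (SE), was not called and overlapped with Control. Its exercised mice, too, were part of what chose the set, so no p is given. Exercised replicate 22, the highest, lay within Control, and replicates 8 and 18 below it. Without replicate 22 the difference was -1.02 and was called lower. Ccn1 was the 1 gene whose exercised mice all lay below Control, an order found in 17.0% of genes tested. Its difference was -0.75 ± 0.23 (SE, edgeR adjusted p = 0.0344), under the fold threshold, and -0.59 with an adjusted p of 0.157 with total counts alone, and on the TPM scale it was 5.04 to 7.65 in exercised mice and 9.76 to 10.01 in Control. Tgfb2 (0.95, adjusted p = 0.271), Tgfb3 (0.39, 0.547), Ankrd1 (0.69, 0.653), Tgfbr1 (0.47, 0.172) and Smad7 (-0.43, 0.0886) did not pass the test, and with 3 mice per group this does not show that they were back at the Control level. The ratio of Ccn2 TPM to Ccn1 TPM was 0.364 ± 0.206 in NASH+Exercise and 0.319 ± 0.0846 in Control (SD, n = 3). The groups overlapped in this ratio, and no p is given because it contains Ccn2.

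**Figure D3:**
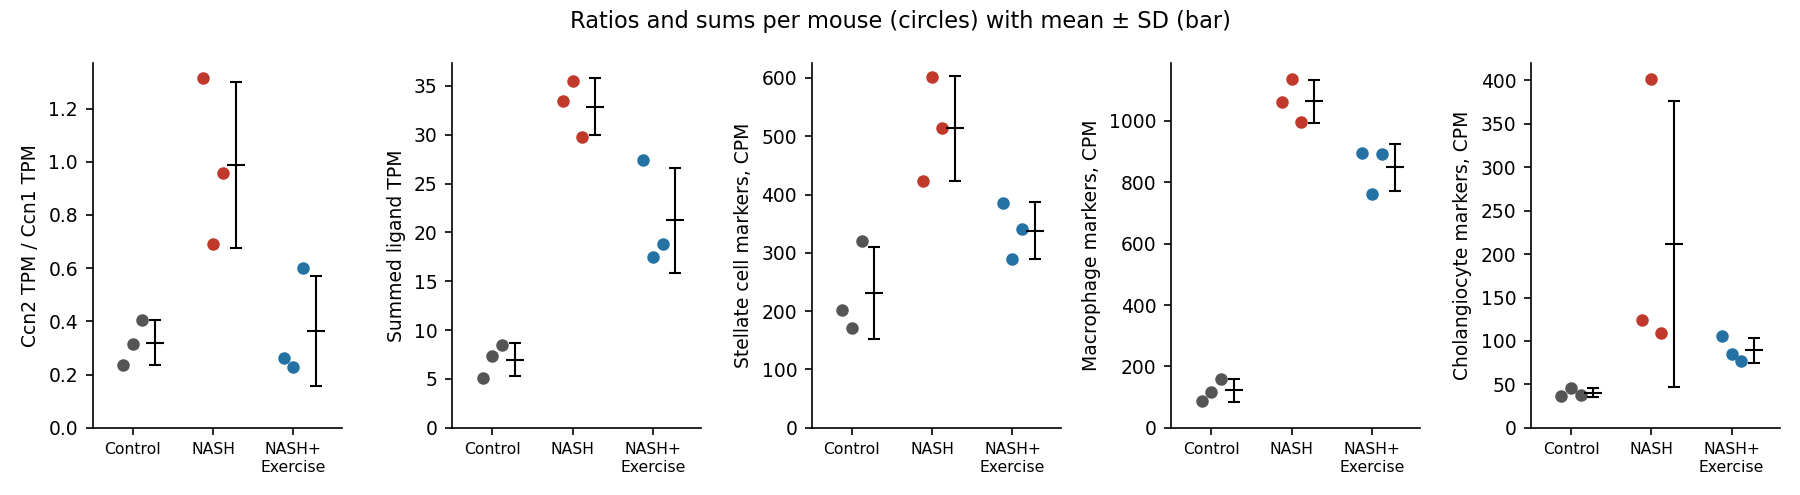
Ratio of Ccn2 to Ccn1 in TPM, summed TPM of the 3 TGF-beta ligands, and summed CPM of marker genes of stellate cells, macrophages and cholangiocytes in each mouse (circles), with the group mean ± SD (bars) on linear axes from 0. The ratio is 0.690 or more in the NASH mice and at most 0.601 in the others. In NASH+Exercise the ligand sum and the macrophage markers lie above every Control mouse and below every NASH mouse. A single NASH mouse, replicate 19, reaches 402 CPM in cholangiocyte markers, a sum that on average is mostly Spp1 in NASH.

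Around these 10 genes, 7 lists of pathway genes (121 genes beside the 10, 110 of them tested) were compared between NASH and Control. The lists were chosen with earlier results of these data known, so their counts and medians are descriptions. The background is 15.3% of all genes tested called higher and 3.02% called lower. Some genes, such as Ltbp2, Pmepa1 and Junb, are shared between lists and counted in each. Among genes that store and release the ligands, 9 of 18 tested were called higher and none lower, with a median log2 fold change of 0.82. The largest rises were those of Ltbp2 (3.37 ± 0.42), a latent TGF-beta binding protein family member of the matrix, Fbn1 (2.28 ± 0.35), the microfibril protein fibrillin 1, Itga8 (2.21 ± 0.33), an integrin chain of stellate cells that binds latent TGF-beta, and Nrros (2.1 ± 0.15), which tethers latent TGF-beta on macrophages. Ltbp2 went from 0.673 ± 0.107 CPM in Control to 7.0 ± 3.0 in NASH, then 2.41 ± 1.01 in exercised mice (SD, n = 3). Nrros went from 3.40 ± 0.525 to 14.6 ± 0.782 and 12.1 ± 0.191 CPM in the same order.

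Among receptors and SMAD proteins 2 of 18 were called higher and none lower (median 0.16), which lies under the background share for rises. These 2 were Acvrl1 (1.71 ± 0.17), the type I receptor ALK1, and Pmepa1 (1.28 ± 0.19), a TGF-beta-induced inhibitor that competes for SMAD2 and SMAD3. The signal-carrying Smad2 (-0.09), Smad3 (0.16) and Smad4 (-0.20) were not called, with adjusted p of 0.644, 0.461 and 0.223 in the edgeR test. With total counts alone all 3 were positive (0.25, 0.51 and 0.14), so the directions of Smad2 and Smad4 depend on the scale.

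Of the TGF-beta target genes 10 of 19 were called higher and none lower, with a median of 1.02. After Timp1, the largest rises were those of the collagens Col1a1 (4.63 ± 0.32), Col3a1 (3.47 ± 0.29) and Col1a2 (3.39 ± 0.30), and Col1a1 went from 3.51 ± 0.529 CPM in Control to 87.2 ± 16.3 in NASH, then 36.7 ± 13.9 in exercised mice (SD, n = 3). Timp1, an inhibitor of matrix proteases, had counts of 3, 0 and 1 in Control, 97, 168 and 165 in NASH, then 78, 30 and 52 in exercised mice, so no fold is given for it. Col1a1 and Col3a1 are also among the stellate cell markers.

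Hippo kinases, YAP, TAZ and TEAD genes were called in 1 of 22 tested (median 0.16), the 1 being Amot (1.09 ± 0.24), a scaffold that binds YAP. Yap1 had a log2 difference of -0.34 ± 0.11 (edgeR adjusted p = 0.0288), and its levels of 72.4 ± 4.04 CPM in Control and 57.3 ± 3.23 in NASH (SD, n = 3) did not overlap. Wwtr1 (0.34 ± 0.12, adjusted p = 0.0439) and Tead1 (0.56 ± 0.14, adjusted p = 0.0109) had positive differences past the p threshold, and all 3 genes stayed under the fold threshold. Tead2 (0.60) and Tead3 (-0.28) missed the p threshold, and Tead4 was too low to test. With total counts alone Yap1 was at 0.01 (adjusted p = 0.927) and Tead3 at 0.07, so the directions of both depend on the scale.

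YAP/TAZ target genes other than the 10 were called higher in 7 of 19 and lower in 1 of 19 (median 0.61). The rises were led by Myof (3.44 ± 0.35), a membrane repair protein, Axl (2.72 ± 0.16), a receptor tyrosine kinase also found on macrophages, Ccdc80 (2.26 ± 0.24), a matrix protein, and Gadd45a (1.66 ± 0.44), a stress-response gene. The 1 gene called lower was Nt5e (-1.49 ± 0.25), the ecto-enzyme CD73, which was named after its value was seen.

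In the CCN and thrombospondin families 2 of 4 tested genes were called higher. These were Thbs2 (1.45 ± 0.28), at 2.38 ± 0.54 CPM in Control, 6.53 ± 1.54 in NASH, then 2.84 ± 0.811 in exercised mice, and Ccn5, whose counts were 3, 0 and 3 in Control, 17, 35 and 11 in NASH, then 10, 4 and 11 in exercised mice. Ccn4 (0.01) and Thbs3 (0.81, adjusted p = 0.0626) were not called. Ccn3, Ccn6 and Thbs4 had at most 8 counts in any mouse and were not tested.

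Immediate early genes, which respond within minutes to serum, stretch or handling and include regulators of Ccn1 and Ccn2, were called higher in 10 of 19 and lower in none (median 1.37). Egr2 (3.24 ± 0.40), Egr3 (2.78 ± 0.50, at 1 to 5 counts in Control), Atf3 (2.49 ± 0.36) and Egr1 (2.31 ± 0.50) led. The summed level of the list was 369 to 444 CPM in Control, 494 to 691 in NASH, then 437 to 693 in exercised mice, and the part of this in the values of Ccn1 and Ccn2 was not tested.

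**Figure D4:**
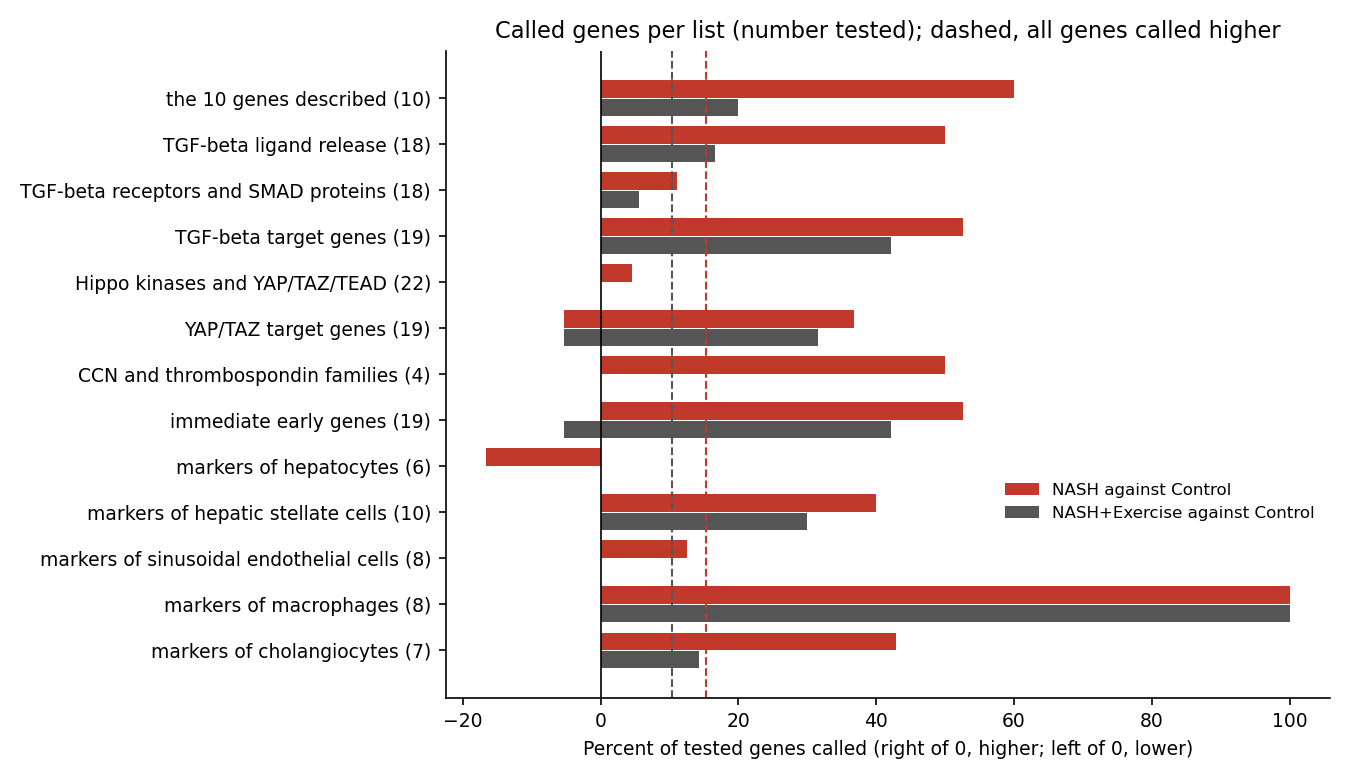
Percent of tested genes called higher (right of 0) or lower (left of 0) per list in NASH against Control (red) and in NASH+Exercise against Control (grey), with the number tested in parentheses and dashed lines at the share of all genes called higher, 15.3% and 10.4%. Among the pathway lists, ligand release, TGF-beta targets, YAP/TAZ targets and immediate early genes lie right of their line in both comparisons. Receptors, SMAD proteins and the Hippo pathway lie left of it. In NASH+Exercise against Control, ligand release rests on 3 of 18 tested genes.

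Between NASH+Exercise and NASH none of the 110 listed genes was called by edgeR, where 32 had an unadjusted p under 0.05, against 2080 of all 13620 genes. The lists were chosen with earlier results of these data known, so nothing is read from the 32. DESeq2, the tool named in the study's methods, called 9 of the 110, all lower, beside a background of 0.936% of genes called lower by that tool. These were Ltbp2 (-1.49 ± 0.38), Ptpn14 (-1.41 ± 0.36), Itga8 (-1.28 ± 0.32), Timp1 (-1.20 ± 0.35), Col1a1 (-1.19 ± 0.27), Thbs2 (-1.15 ± 0.29), Ltbp1 (-1.08 ± 0.25), Col1a2 (-1.03 ± 0.27) and Col3a1 (-1.0 ± 0.27), as DESeq2 log2 fold changes with SE. For each, all 3 exercised mice lay below all 3 NASH mice, an order found in 14.9% of genes tested. Picking genes called lower in these same mice favours this order, so nothing is read from it. Ptpn14, a phosphatase that retains YAP in the cytoplasm, and Ltbp1, the binding protein of latent TGF-beta, were named after their values were seen.

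Against Control, 10.4% of all genes tested were called higher in the exercised mice and 3.07% lower. Called higher were 3 of 18 ligand release genes, 8 of 19 TGF-beta targets, 6 of 19 YAP/TAZ targets and 8 of 19 immediate early genes. So was 1 of 18 receptors and SMAD proteins, which lies under the background share, and none of the Hippo or the CCN and thrombospondin lists. Col1a1 (3.38 ± 0.31), Nrros (1.83 ± 0.15), Axl (2.19 ± 0.16) and Myof (2.56 ± 0.35) were among those called. Called lower were 1 of 19 YAP/TAZ targets, Nt5e (-1.80 ± 0.26), and 1 of 19 immediate early genes, Dusp1 (-1.23 ± 0.29), a phosphatase of MAP kinases named after its value was seen. Itga8 (0.88, adjusted p = 0.0804) and Thbs2 (0.26, adjusted p = 0.566) did not pass the test, and Thbs2 overlapped with Control as Ccn2 did. Macrophage markers were called higher in 8 of 8 and stellate cell markers in 3 of 10 in this comparison.

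Over the 9 mice, the genes whose log2 CPM followed that of Ccn2 most closely were Pear1 (r = 0.96), Jam3 (0.95), Astn2 (0.95), Dok4 (0.94) and Ttc28 (0.90), as Pearson r over all genes tested. After the group means were removed r was 0.84, 0.96, 0.90, 0.75 and 0.83 in the same order. For all 5, every NASH mouse lay above every Control and exercised mouse. Picking genes by their likeness to Ccn2 favours this order, so nothing is read from it. The differences were smaller than for Ccn2: Pear1, a receptor of platelets and endothelium, was at 8.85 ± 1.0 CPM in Control, 11.1 ± 0.284 in NASH, then 7.91 ± 1.25 in exercised mice (SD, n = 3). Jam3 was scarce, at 0.330 to 0.970 CPM over all mice. The log2 fold changes of these 5 genes in NASH were 0.33 to 0.73, and none was called. Among the other 9 genes described here, r with Ccn2 was highest for Tgfb3 (0.75, rank 134 of 13620), Tgfb2 (0.72) and Ankrd1 (0.65) and lowest for Ccn1 (0.12, rank 5403). After the group means were removed the order changed, with Thbs1 highest (0.93), then Tgfbr2 (0.70) and Tgfb3 (0.65), and Tgfbr1 lowest (-0.38). These r are descriptions of 9 points in 3 groups that share their diet, and no p is given.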

How the data were processed

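Liver RNA from 9 mice (3 per group) was sequenced, and each mouse was 1 library. The authors deposited 1 table per mouse with estimated counts, FPKM and TPM per Entrez gene. The submitters' processing notes list HISAT2 2.1.0, Bowtie2 2.2.5, RSEM 1.2.8 and GRCm38.p6, and their roles were not given in the sources used here. Between 29.0% and 32.8% of the deposited counts were not whole and were rounded. The deposited FPKM were not used. TPM served to compare genes of different length, for the ratios and the ligand sum, and as a second scale between groups where the text says so. Genes were named by the RefSeq symbol of the Entrez identifier in the files, and coordinates and promoters came from RefSeq GRCm38.p6.

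Counts were tested in R 4.3.3 with edgeR 4.0.16 (filterByExpr with minimum count 10 and minimum total 15, TMM, robust quasi-likelihood fit of all 9 mice by group, Benjamini-Hochberg over 13620 genes). Genes were called with the study's thresholds, 0.05 on the adjusted p and 1 on the log2 fold change in either direction. Log2 CPM used a prior count of 2. The test was checked on simulated counts. DESeq2 1.42.0, its size factors, total counts, no filter, 6 mice alone, p alone and leaving out each mouse were the alternatives. That each replicate is a separate mouse is taken from the labels' titles.

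The 10 genes and all lists were chosen with earlier results of these data known. The text names the 10 genes, the core YAP, TEAD and SMAD genes, the CCN and thrombospondin families, up to 4 called genes of each other list with the largest change in NASH, any called by exercise, and the 5 genes most like Ccn2. Marker lists are given as counts and sums. A gene the rule would also name is not reported here.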

Additional observations from a re-analysis of the deposited data

How the results depend on the processing

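Of 327 values of the 10 genes recomputed under an alternative, 300 kept their direction and side of the thresholds, 14 lost the call, 9 gained it and 4 reversed. The reversals were small: Smad7 in NASH against Control was 0.28 with total counts alone and -0.24 to 0.0275 over fits without 1 mouse (positive without Control replicate 4). Tgfbr2 in NASH+Exercise against NASH was -0.25 to 0.032 (positive without exercised replicate 18), and Tgfb3 in NASH+Exercise against Control was -0.0064 to 0.74 (negative without exercised replicate 22). In NASH against Control 6 of the 10 genes were called, and 3 to 7 without 1 mouse, with 3 without Control replicate 3 and 4 without NASH replicate 19. Over the listed genes, 39 were called there and 32 to 42 without 1 mouse. In NASH+Exercise against NASH the 1 call (Ccn2) fell to 0 when these 6 mice were fitted alone and was 0 to 1 without 1 mouse. It stood only without exercised replicate 22, while its log2 fold change stayed between -2.16 and -1.55. The listed genes called there numbered 0, and 9 with DESeq2; without 1 mouse they stayed at 0. In NASH+Exercise against Control 2 of the 10 were called, 4 by adjusted p alone, and 2 to 3 without 1 mouse. DESeq2 called 204 genes in NASH+Exercise against NASH where edgeR called 19. The causes were not tested. No paired analysis was possible because the groups share no replicate numbers. Ankrd1, Tgfb2, Thbs1 and Ccn5 rest on few counts in Control, which limits the precision of their fold changes.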
